A study of Mus musculus with 6 samples.

Results

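The cyclins and cyclin-dependent kinases (CDKs) that carry a cell from G1 into S phase, with the main Cip/Kip inhibitors, are 10 genes of the 55401 listed in a gene count table of mouse macrophage-lineage cells. They were found by symbol: Ccnd1, Ccnd2, Ccnd3, Ccne1, Ccne2, Cdk2, Cdk4, Cdk6, Cdkn1a and Cdkn1b each had 1 row, and all 10 had enough counts to be tested, as had 15272 genes in all. RNA-seq was made from 3 samples of wild-type (WT) cells treated with NETs (neutrophil extracellular traps: chromatin covered with granule proteins, cast out by neutrophils), and from 3 untreated control samples. BMDM (macrophages grown from bone marrow) is the labelled cell type, yet each title starts with BV2, the name of a mouse microglial line that was immortalised with the v-raf and v-myc oncogenes. The sources used here do not settle which of these the cells were, and give neither a NETs dose, nor an exposure time, nor whether samples were cultured separately. The spread behind each p-value is that between these 3 samples and may be technical.

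D-type cyclins are made in response to growth factors and bind CDK4 and CDK6. These complexes phosphorylate the retinoblastoma protein and its relatives, which frees the E2F transcription factors, and E2F switches on the E-type cyclins, whose partner CDK2 starts DNA replication. p21 (Cdkn1a) and p27 (Cdkn1b) block CDK2 complexes and also help to assemble cyclin D complexes. In macrophages, the growth factor CSF-1 drives this sequence.

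Total counts ran from 39994613 to 43686531 in NETs-treated and from 41830940 to 44274445 in control libraries. Spread within the group was wider after NETs, with a median SD of log2 CPM (read counts scaled to the size of the library) over genes of 0.198 against 0.118 in control. All 10 macrophage markers were detected, 2 of them called higher and 8 lower, with a summed level of 10375 to 10669 CPM in NETs-treated and 5921 to 6068 CPM in control libraries, a sum in which Cd14 alone stood at 5379 to 5539.5 CPM after NETs and at 687 to 698 CPM in control. Of 8 microglia markers 6 had enough counts to be tested, with 1 called higher and 4 lower, and only Sall1 was at 0 in every library. Of 11 neutrophil markers 7 were at 0 throughout, S100a9 and Mpo among them, and their sum was 9.34 to 14.3 CPM in NETs-treated and 3.02 to 4.78 CPM in control libraries, mostly from S100a8.

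The 10 genes moved in both directions. Ccne1, Ccne2, Ccnd3, Cdk2, Cdkn1a and Cdkn1b were higher in NETs-treated cells and Ccnd1, Ccnd2, Cdk4 and Cdk6 were lower. A gene was called when its p from edgeR's quasi-likelihood test, after Benjamini-Hochberg adjustment over all tested genes, was under 0.05, with 3 libraries in each group. The 6 higher and 4 lower calls stand against 25.5% of all tested genes called higher and 27.2% called lower, together 52.7%. Of the 9162 tested genes that averaged 10 CPM or more, the range in which all 10 lie, 64.3% were called. NETs-treated and control libraries did not overlap in CPM for any of the 10, as for 62.4% of tested genes. In bulk RNA fewer cells of a kind, such as cells in 1 phase of the cycle, and less RNA per cell cannot be told apart. In the authors' deposited table, all 10 genes have the same direction and an adjusted p of at most 0.0158.

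**Figure D1:**
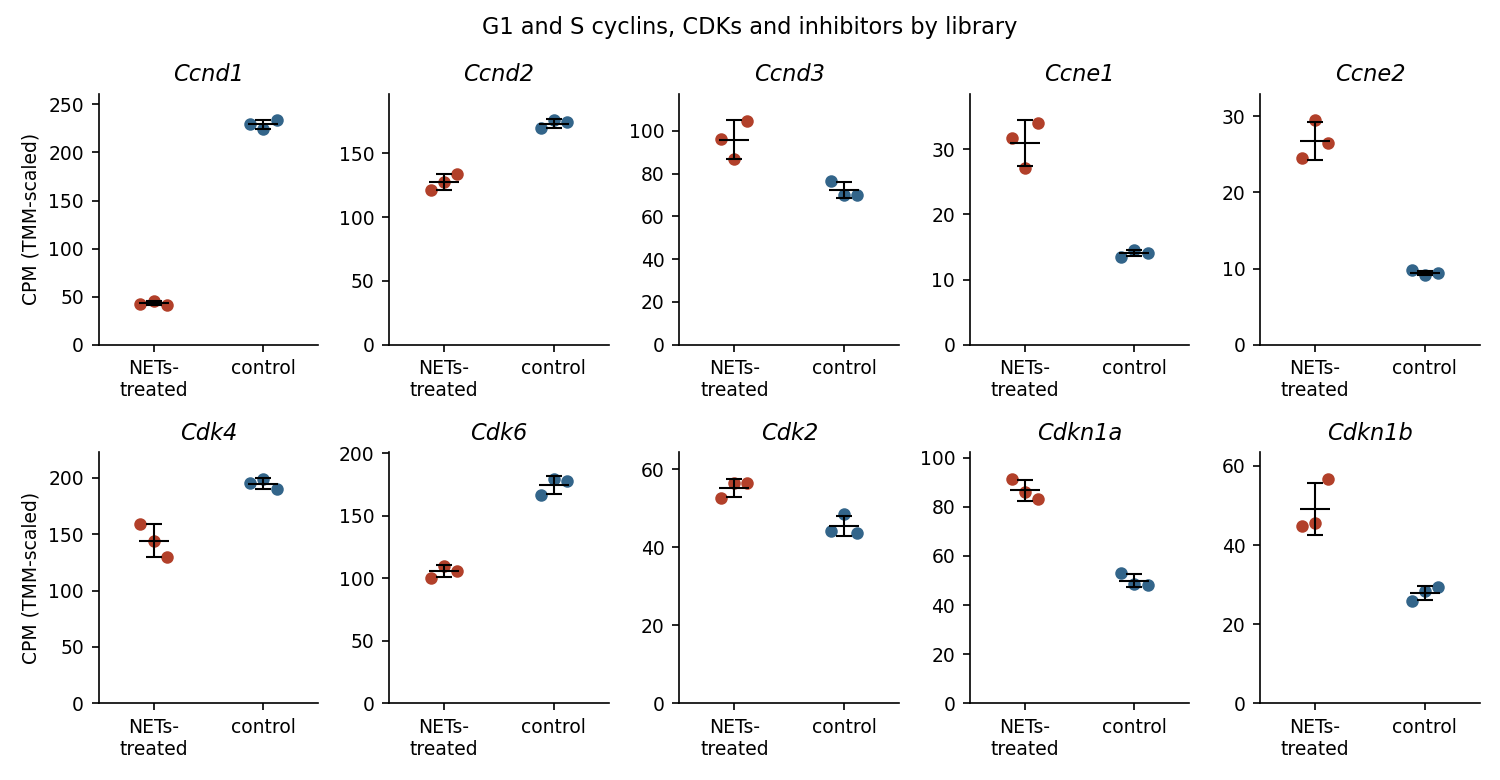
Each panel shows 1 gene, with the level in CPM after TMM scaling on the vertical axis, a dot per library, and a bar with whiskers for the mean and SD of 3 libraries. The NETs-treated libraries of Ccnd1 lie between 41.2 and 45.2 CPM and the control libraries between 225 and 233 CPM, and in every panel the groups are apart.

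Ccnd1, the gene of cyclin D1, fell most among the 10. It had 42.5, 45.2 and 41.2 CPM in NETs-treated libraries, against 229, 225 and 233 CPM in control libraries. The 3 NETs-treated libraries sat close together and far below the controls. Its log2 fold change came to -2.42 ± 0.07 (SE; adjusted p = 1.47e-07 in edgeR), a 5.33-fold lower level, and only 431 of the 15272 tested genes had a lower log2 fold change. Ccnd1 (ENSMUSG00000070348.5) lies on chromosome 7 from 144929931 to 144939925 on the minus strand of GRCm38. Its exons share 1100 bases with LTO1 on the other strand, which had 619 to 756 counts in NETs-treated and 566 to 625 in control libraries, while Ccnd1 had 1612 to 1814 counts in NETs-treated and 9684 to 10592 in control libraries.

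Ccnd2, the gene of cyclin D2, fell far less. It stood at 121, 127 and 134 CPM in NETs-treated and at 169.6, 176 and 174 CPM in control libraries, 128 ± 6.23 against 173 ± 3.26 CPM (mean ± SD, n = 3 each). All NETs-treated values lay under all control values, with a log2 fold change of -0.44 ± 0.07 (SE; adjusted p = 5.97e-04 in edgeR). This gene (ENSMUSG00000000184.12) spans 127125162 to 127152193 on chromosome 6, minus strand.

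Ccnd3, which encodes cyclin D3, went the other way. It had 96.0, 86.7 and 104.8 CPM in NETs-treated libraries and 76.6, 70.1 and 70.1 CPM in control libraries. The lowest NETs-treated library was above the highest control library, and the log2 fold change was 0.41 ± 0.09 (SE; adjusted p = 0.00459 in edgeR). Ccnd3 (ENSMUSG00000034165.16; chromosome 17, 47505051 to 47599691, plus strand) shares 361 exonic bases with Bysl on the other strand. Bysl also rose, with 2551 to 2961 counts in NETs-treated and 1853 to 2171 in control libraries (log2 fold change 0.57, adjusted p = 6.24e-04 in edgeR). No source used here gives the strand setting of the authors' counting, and without it reads from the shared bases of such overlapping genes cannot be told apart.

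Set per length of transcript, the makeup of the D-type cyclins differed between the groups. CPM were divided by the length of each gene's longest protein-coding transcript in GENCODE M21, in kilobases (kb). The sum of the 3 genes was 77.0 ± 4.31 CPM per kb in NETs-treated and 123 ± 1.71 CPM per kb in control cells (SD, n = 3 each). Of that sum, Ccnd1 gave 14.98 ± 1.52% in NETs-treated and 49.9 ± 0.71% in control cells. The share of Ccnd3 was 58.8 ± 2.47% in NETs-treated and 27.8 ± 1.16% in control cells, and that of Ccnd2 was 26.2 ± 1.16% in NETs-treated and 22.3 ± 0.71% in control cells. Ccnd1 was thus the most abundant D-type cyclin transcript per length in control cells and the least abundant in NETs-treated cells. With the length of all merged exons instead, an alternative added after seeing the data, Ccnd1 gave 27.2 ± 2.03% in NETs-treated and 64.6 ± 0.50% in control cells and kept both places. The order of Ccnd2 and Ccnd3 turned round in both groups, with Ccnd2 at 40.3 ± 0.95% and Ccnd3 at 32.5 ± 2.26% in NETs-treated cells, against 24.5 ± 0.62% and 10.9 ± 0.56% in control cells. Which transcripts the cells made was not measured, so levels per length are descriptions without a test.

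**Figure D2:**
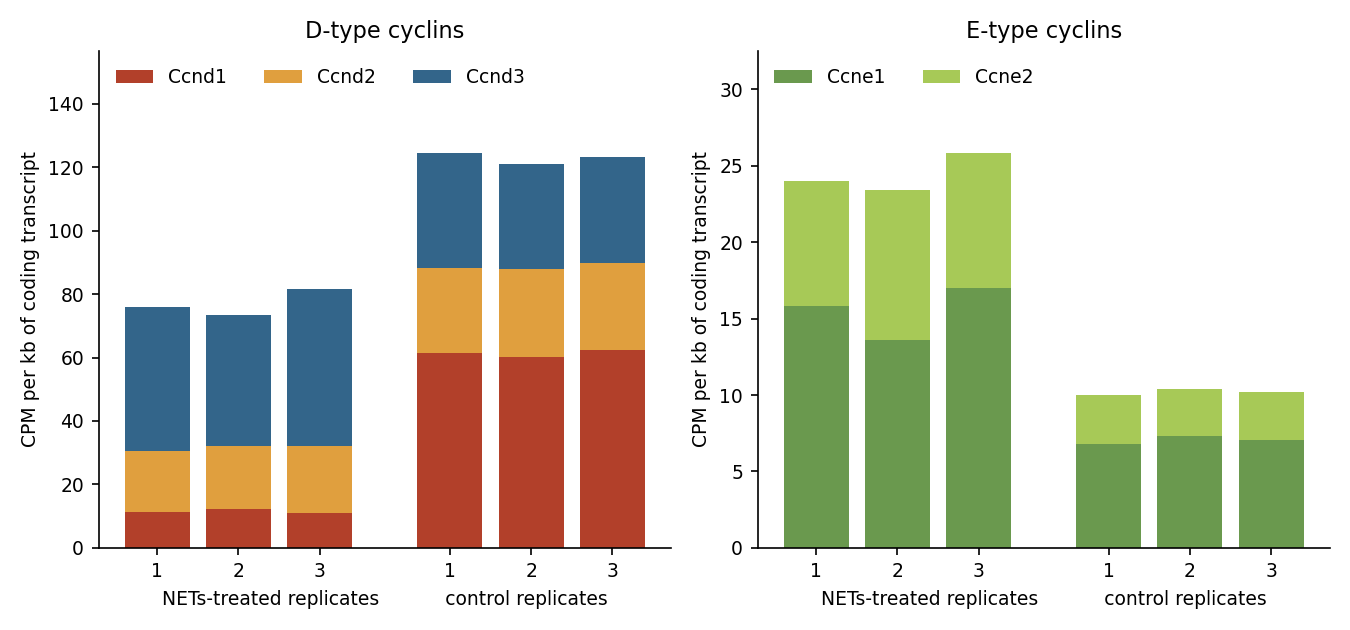
Stacked bars give, for each of the 6 libraries, the level of each cyclin in CPM per kb of its longest coding transcript, with D-type cyclins on the left and E-type cyclins on the right. The D-type sum is 73.3 to 81.7 in NETs-treated and 121 to 124 in control libraries, and the E-type sum is 23.4 to 25.8 in NETs-treated and 10.01 to 10.4 in control libraries.

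The kinases of the D-type cyclins fell together with Ccnd1 and Ccnd2. Cdk4 had 159, 144 and 129 CPM in NETs-treated libraries and 196, 199 and 190.0 CPM in control libraries. The NETs-treated libraries were all lower and spread more widely, 144 ± 15 against 195 ± 4.64 CPM (SD, n = 3 each). The log2 fold change came to -0.43 ± 0.08 (SE; adjusted p = 0.00261 in edgeR), or a 1.35-fold lower level. Cdk4 (ENSMUSG00000006728.12) lies on chromosome 10 from 127063534 to 127067920 on the plus strand. It shares 641 exonic bases with Tspan31 on the other strand, which moved the opposite way, with 4227 to 4584 counts in NETs-treated and 3515 to 3609 in control libraries (log2 fold change 0.42, adjusted p = 9.12e-04 in edgeR).

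Cdk6 fell somewhat more. It had 100.2, 109.9 and 106 CPM in NETs-treated and 166, 179 and 177 CPM in control libraries, with a wide gap between the groups. Its log2 fold change came to -0.73 ± 0.07 (SE; adjusted p = 4.92e-05 in edgeR), a 1.65-fold lower level. This gene (ENSMUSG00000040274.11) spans 3341485 to 3531008 on chromosome 5, plus strand. Per length of coding transcript Cdk4 stood well above Cdk6, at 70.4 ± 7.31 and 9.14 ± 0.42 CPM per kb in NETs-treated and at 95.0 ± 2.26 and 15.1 ± 0.62 CPM per kb in control cells. Cdk4 gave 88.4 ± 1.36% of the pair in NETs-treated and 86.3 ± 0.57% in control cells.

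Cdk2, the kinase of the E-type cyclins, rose slightly. It had 52.6, 56.6 and 56.6 CPM in NETs-treated libraries, against 44.3, 48.4 and 43.7 CPM in control libraries. The groups were apart, but their nearest libraries, NETs-treated replicate 1 and control replicate 2, lay close together. Cdk2 had a log2 fold change of 0.28 ± 0.08 (SE; adjusted p = 0.0148 in edgeR), the smallest of the 10. The call was lost without control replicate 1 (adjusted p = 0.0615), without control replicate 3 (adjusted p = 0.0714) and with scaling by library size only (adjusted p = 0.0520), all in edgeR. Cdk2 (ENSMUSG00000025358.16) spans 128697939 to 128705031 on chromosome 10, minus strand.

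The promoters of 7 of the 10 genes were searched on both strands for 7 short motifs, and those of Cdk4 and Cdk2, which lie on the same chromosome and moved in opposite directions, are printed to show the 4 E-boxes of Cdk4 and the E2F-type sequence of Cdk2. They come from RefSeq on GRCm38.p6, run 5′ to 3′ and end before the annotated gene start. In Cdk4 (chr10:127063285-127063533, plus strand) capitals mark the E-box CACGTG, which MYC and related factors bind. In Cdk2 (chr10:128705052-128705301, minus strand) capitals mark an E2F-type sequence.
Cdk4: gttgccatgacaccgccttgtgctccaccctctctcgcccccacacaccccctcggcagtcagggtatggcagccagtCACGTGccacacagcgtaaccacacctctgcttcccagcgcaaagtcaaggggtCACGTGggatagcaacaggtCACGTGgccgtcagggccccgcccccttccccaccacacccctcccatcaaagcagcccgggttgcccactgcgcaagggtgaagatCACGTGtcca
Cdk2: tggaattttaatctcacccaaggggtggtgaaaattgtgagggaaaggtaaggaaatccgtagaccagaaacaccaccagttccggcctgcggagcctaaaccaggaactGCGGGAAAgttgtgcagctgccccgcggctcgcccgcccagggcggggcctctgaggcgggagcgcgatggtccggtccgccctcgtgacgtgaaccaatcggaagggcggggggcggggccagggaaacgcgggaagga
The Cdk4 window held 4 E-boxes. At least 1 stood in 6.02% of 32851 windows of 250 bases before RefSeq starts, and at least 4 in 0.0213%, which is 7 windows. The limit of 4 is the number found in Cdk4, and such a share was computed for no other of the 7 motifs, so it is only a description. The Cdk6 window held 1 E-box. The E2F-type letters were TTTCGCGC, TTTGGCGC, TTTCCCGC and TTTGCCGC on either strand, found in 1.86% of windows and in Cdk2 alone among the 7 of the 10 genes with a window. AP-1 (TGACTCA) and CRE (TGACGTCA) letters were in none of these windows, against 4.46% and 1.55% of all. The GC box GGGCGG, in 32.7% of all windows, had 5 matches in Cdk2, 4 in Ccne1, 1 in Cdk4, 1 in Cdkn1b and 0 in Cdk6. Of the 2 windows each of Ccnd3 and Cdkn1a, those of Ccnd3 held 2 and 1 GC boxes and those of Cdkn1a held 0 and 2. CCAAT, in 33.8% of all windows, had 2 matches in Cdkn1b, 1 in Cdk2 and 1 in a Ccnd3 window. The forkhead letters GTAAACA, in 3.17% of all windows, had 1 match in a Ccnd3 window and none in the others, Cdkn1b included. No match overlapped another in them. A match or its absence describes the letters of these windows only, and binding was not measured.

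The E-type cyclins rose most among the 10. Ccne2, the gene of cyclin E2, had 24.5, 29.5 and 26.4 CPM in NETs-treated libraries and 9.74, 9.21 and 9.41 CPM in control libraries. Every NETs-treated library was far above the tight control group. The log2 fold change came to 1.50 ± 0.11 (SE; adjusted p = 1.31e-05 in edgeR), a 2.83-fold higher level, and 698 tested genes had a higher log2 fold change. Ccne2 (ENSMUSG00000028212.16; chromosome 4, 11191351 to 11204779, plus strand) shares 609 exonic bases with Ints8 on the other strand. Ints8 had 1017 to 1130 counts in NETs-treated and 797 to 1023 in control libraries, with a log2 fold change of 0.38 (adjusted p = 0.0179 in edgeR).

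Ccne1, the gene of cyclin E1, had 31.7, 27.2 and 34.0 CPM in NETs-treated and 13.5, 14.6 and 14.1 CPM in control libraries. Again the groups lay far apart. Its log2 fold change came to 1.14 ± 0.11 (SE; adjusted p = 6.10e-05 in edgeR), a 2.20-fold higher level. This gene (ENSMUSG00000002068.16) spans 38097984 to 38107534 on chromosome 7, minus strand. Per length of coding transcript the pair summed to 24.4 ± 1.26 CPM per kb in NETs-treated and 10.2 ± 0.18 CPM per kb in control cells, of which Ccne1 gave 63.4 ± 4.54% in NETs-treated and 69.1 ± 1.41% in control cells.

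The inhibitor genes rose by almost the same amount. Cdkn1a (p21), a target of p53 that also responds to many other signals, had 91.4, 85.9 and 83.1 CPM in NETs-treated libraries and 53.2, 48.4 and 48.2 CPM in control libraries. Its log2 fold change came to 0.80 ± 0.08 (SE; adjusted p = 5.41e-05 in edgeR), a 1.74-fold higher level. All NETs-treated libraries were above all control libraries. Cdkn1a (ENSMUSG00000023067.14) lies on chromosome 17 from 29090976 to 29100727 on the plus strand.

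Cdkn1b (p27), which holds resting cells out of the cycle and is switched on by FOXO factors, had 44.9, 45.6 and 56.7 CPM in NETs-treated libraries and 25.9, 28.4 and 29.3 CPM in control libraries. NETs-treated replicate 3 stood above its group, and all 3 were above the controls. The log2 fold change came to 0.81 ± 0.11 (SE; adjusted p = 3.76e-04 in edgeR), or 0.71 without NETs-treated replicate 3. Cdkn1b (ENSMUSG00000003031.14) spans 134920401 to 134925513 on chromosome 6, plus strand. Per length, Cdkn1a gave 79.5 ± 2.87% of the pair in NETs-treated and 79.6 ± 1.89% in control cells.

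**Figure D3:**
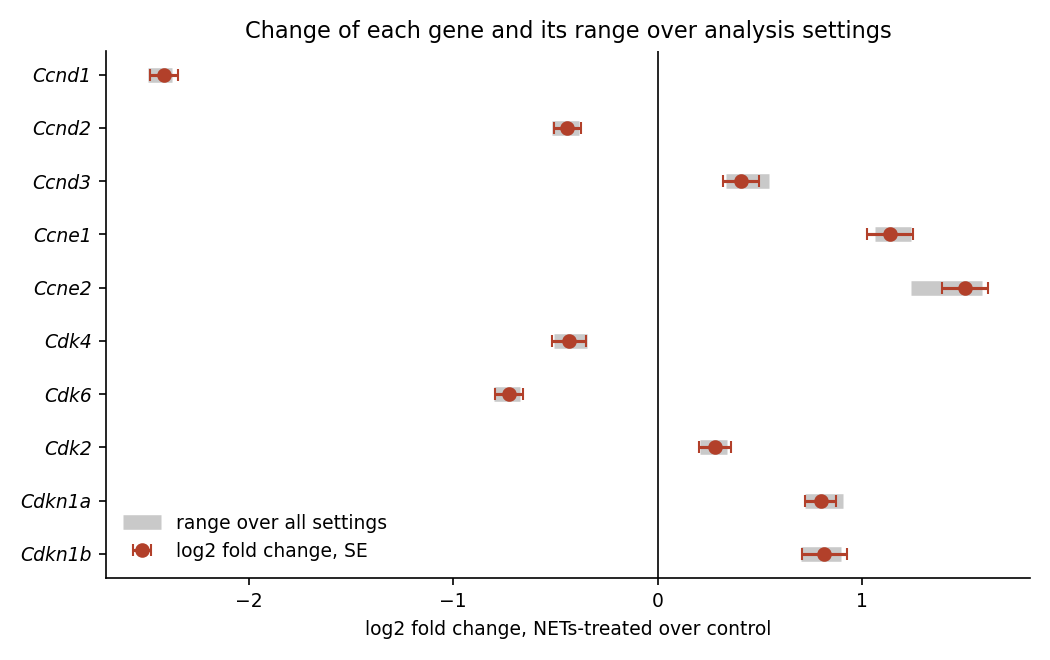
The horizontal axis is the log2 fold change of NETs-treated over control cells; dots with whiskers are the estimate and its SE, and grey bars span the lowest and highest value over the main and 16 other analysis settings. No bar crosses 0, and the bar of Cdk2, from 0.21 to 0.34, lies nearest to it.

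Ratios between paired genes within a library do not depend on how libraries are scaled, and 6 were compared. The log2 ratio of Ccnd1 to Ccnd3 counts was -1.15 ± 0.21 in NETs-treated and 1.67 ± 0.08 in control cells (SD, n = 3 each), a difference of -2.82. That of Ccnd1 to Ccnd2 was -1.57 ± 0.11 in NETs-treated and 0.40 ± 0.04 in control cells, a difference of -1.97, so both ratios lay below 0 in every NETs-treated library and above 0 in every control library. Ccnd2 to Ccnd3 differed by -0.85 (0.42 ± 0.12 in NETs-treated, 1.26 ± 0.10 in control cells). For Ccne1 to Ccne2 the difference was -0.37, with 0.21 ± 0.28 in NETs-treated and 0.57 ± 0.10 in control cells, and without NETs-treated replicate 2 it was -0.21. Cdk4 to Cdk6 differed by 0.29 (0.45 ± 0.20 in NETs-treated, 0.16 ± 0.07 in control cells), and by 0.18 without NETs-treated replicate 1. The groups did not overlap for these 5 ratios, which gave p = 0.10 each in a two-sided exact permutation test, the smallest that 3 against 3 allows, and 0.12 after Benjamini-Hochberg adjustment over 6 ratios. Cdkn1a to Cdkn1b had 0.83 ± 0.25 in NETs-treated and 0.84 ± 0.17 in control cells, with overlapping groups (exact permutation p = 0.90), and the difference of -0.01 turned positive without NETs-treated replicate 3 (0.13) or control replicate 1 (0.09).

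**Figure D4:**
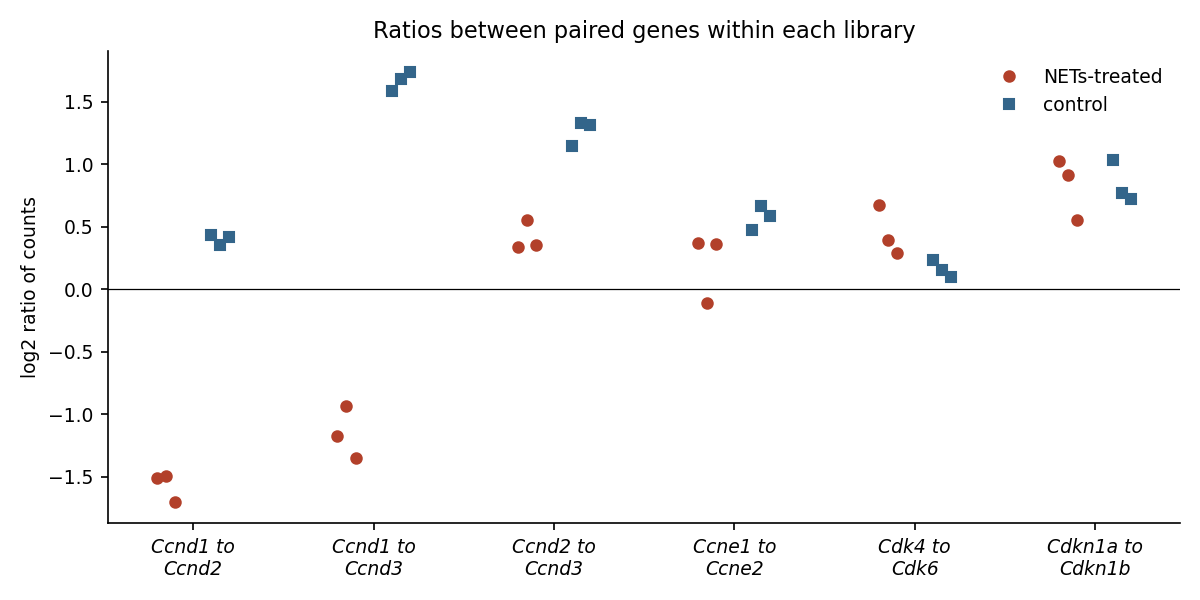
The vertical axis is the log2 ratio of counts of the paired genes named below it, with a point for each NETs-treated library (circles) and each control library (squares). The ratios of Ccnd1 to Ccnd2 and to Ccnd3 are negative in the 3 NETs-treated and positive in the 3 control libraries, while those of Cdkn1a to Cdkn1b overlap.

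The genes around these 10 were counted in lists, and each count stands beside the 52.7% of all tested genes called and their median log2 fold change of -0.02. Most genes of these lists averaged 10 CPM or more, and of all tested genes in that range 64.3% were called. Of 6 tested inhibitors outside the 10, 4 fell and 1 rose, with a median of -0.82. Cdkn2c (p18), which binds CDK4 and CDK6, fell to 3.82 ± 0.68 CPM in NETs-treated cells, against 14.8 ± 0.68 CPM in control (log2 fold change -1.96 ± 0.17 SE, adjusted p = 2.93e-05 in edgeR). Cdkn2b (p15) stood at 7.45 ± 0.42 CPM in NETs-treated and 18.1 ± 0.99 CPM in control cells, and Cdkn3, in fact a phosphatase of CDKs, at 2.73 ± 0.31 CPM in NETs-treated and 12.2 ± 2.05 CPM in control cells. Cdkn2d (p19) rose, with 31.9 ± 4.89 CPM in NETs-treated and 21.1 ± 2.13 CPM in control cells. Cdkn2a, which encodes p16 and also ARF, had 134 ± 9.75 CPM in NETs-treated and 162 ± 6.55 CPM in control cells (log2 fold change -0.28, adjusted p = 0.0136 in edgeR). The genes of this list called lower were 3 in place of 4 without NETs-treated replicate 2, without control replicate 1 and with GC correction.

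Among the pocket proteins and their E2F and DP partners, 3 of 12 tested genes rose, 2 fell and the median was 0.08. Rb1, the retinoblastoma gene, had 88.2 ± 13.7 CPM in NETs-treated and 76.4 ± 2.68 CPM in control cells and was not called (adjusted p = 0.152 in edgeR). E2f2, an activating E2F, rose to 27.1 ± 0.96 CPM in NETs-treated cells, against 13.8 ± 2.12 CPM in control. E2f3, of the same class, had a log2 fold change of 0.34, a call lost without control replicate 1 or 2 (edgeR adjusted p = 0.0628 and 0.0590). E2f8, a repressor, had -0.63 and the pocket protein gene Rbl1 had -0.40, the last lost without NETs-treated replicate 2 (edgeR adjusted p = 0.0555). Without control replicate 1 or 2 only 1 gene of this list rose, and without NETs-treated replicate 2 only 1 fell.

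E2F target genes of DNA replication went both ways, with 9 of 30 tested higher, 10 lower and a median of -0.05. Rpa2, which coats single-stranded DNA, rose with a log2 fold change of 1.23 ± 0.12 (SE) and Fen1, which trims Okazaki fragments, with 0.70 ± 0.09. Tk1 (thymidine kinase) fell with -0.89 ± 0.10 and Pola1, the DNA polymerase alpha catalytic subunit, with -0.63 ± 0.12. Leaving out control replicate 2 left 5 higher, and leaving out control replicate 3 left 6 lower. Ccne1 and Ccne2, E2F targets themselves, both rose, while this list was split.

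All 17 tested cyclins and kinases of the G2 and M phases and their companions were called lower, with a median of -0.83. The genes called lower were 16 without control replicate 3. Ccna2, the cyclin that replaces the E-type cyclins on CDK2 in S phase, had 24.2 ± 0.50 CPM in NETs-treated and 73.0 ± 4.68 CPM in control cells. Ccnb2 stood at 21.1 ± 1.34 CPM in NETs-treated and 70.8 ± 5.17 CPM in control cells. Plk1 had a log2 fold change of -1.47 ± 0.13 (SE) and Top2a of -1.35 ± 0.10. The direction of this list was that of Ccnd1, Ccnd2, Cdk4 and Cdk6 and the opposite of that of the other 6 genes, and its part in their changes was not tested.

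**Figure D5:**
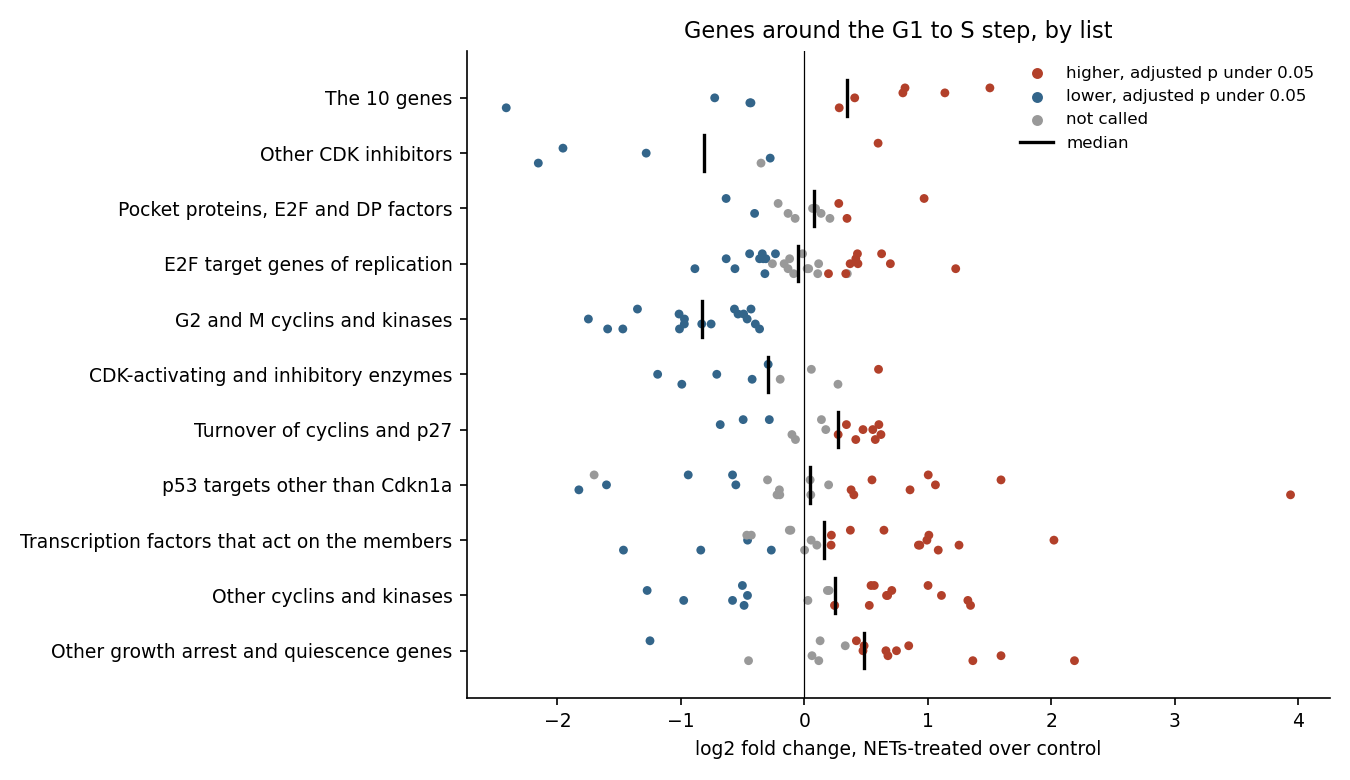
Each dot is a tested gene at its log2 fold change of NETs-treated over control cells, in rows by list, coloured by its edgeR call, with a black bar at the list median. The dots of the G2 and M list are all called lower with a median of -0.83, while the E2F targets of replication lie on both sides of 0.

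Of 9 genes for enzymes that switch CDKs on or off, their subunits and associated proteins, 5 fell and 1 rose, with a median of -0.29. Cdc25a, the phosphatase that activates CDK2, rose, with 35.4 ± 1.84 CPM in NETs-treated and 23.4 ± 1.22 CPM in control cells. Its mitotic relative Cdc25c had a log2 fold change of -0.99, the inhibitory kinase gene Pkmyt1 of -1.19, and Mnat1, a subunit of the CDK-activating kinase, of -0.71. Without NETs-treated replicate 1, 2 genes of this list rose.

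Genes for the turnover of cyclins and p27 had 8 of 15 tested members higher and 3 lower, with a median of 0.27. The p27 ubiquitin ligase subunit Skp2 rose to 34.2 ± 1.92 CPM in NETs-treated cells, against 23.0 ± 1.62 CPM in control, and its cofactor Cks1b had a log2 fold change of 0.62 ± 0.10 (SE). Skp1a, another subunit, had 0.60, while the scaffold gene Cul1 had -0.50 and Fbxo4 had -0.68. The call of Fbxo4 was lost without control replicate 1 (edgeR adjusted p = 0.0562). Rbx1, the ring subunit of the same ligase, had -0.10 and was not called (adjusted p = 0.428 in edgeR). Of the ligase genes of p27, Skp2, Cks1b and Skp1a thus rose and Cul1 fell, while Cdkn1b rose.

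Of 21 tested p53 targets other than Cdkn1a, 8 rose and 5 fell, with a median of 0.05. The death receptor gene Fas had 8.11, 6.61 and 10.01 CPM in NETs-treated and 0.535, 0.116 and 0.947 CPM in control libraries, and the antiproliferative gene Btg2 rose with a log2 fold change of 1.59 ± 0.09 (SE). Bbc3 (PUMA) had -1.60 ± 0.25 and the stress gene Sesn2 had -1.83 ± 0.08. Mdm2 rose with 0.40, a gene named outside the rule for its place in p53 control, and Trp53 had -0.12 (adjusted p = 0.412 in edgeR).

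Among transcription factors known to act on the 10 genes, 11 of 22 tested rose and 4 fell, with a median of 0.16. Foxo1, of the factors that switch on Cdkn1b, rose to 86.6 ± 4.67 CPM in NETs-treated cells, against 40.9 ± 4.39 CPM in control. Of its relatives, Foxo3 also rose, with a log2 fold change of 0.93, while Foxo4 fell with -0.46 (adjusted p = 0.00382 in edgeR). Myc, which drives Ccnd2 and Cdk4 and represses Cdkn1a, had 3.55 ± 0.56 CPM in NETs-treated and 6.36 ± 0.97 CPM in control cells (log2 fold change -0.84 ± 0.21 SE, adjusted p = 0.00942 in edgeR). Fos had a log2 fold change of 2.02, Cebpb of 1.25 and Cebpa of -1.47. Whether any of these factors played a part in the changes of the 10 genes was not tested.

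Cyclins and CDKs outside the cell cycle core, most of which act in transcription, had 11 of 21 tested members higher and 6 lower, with a median of 0.25. Ccnl2, Ccnt1 and Ccnt2, cyclins of the RNA polymerase II machinery, rose with log2 fold changes of 1.35, 1.32 and 1.11, while Cdk10 had -1.27 and Cdk14 had -0.98. Of 16 tested genes of growth arrest and quiescence, 10 rose and 1 fell, with a median of 0.48. Txnip rose to 591 ± 2.09 CPM in NETs-treated cells, against 130 ± 9.62 CPM in control, and Btg1 to 323 ± 2.06 CPM in NETs-treated cells, against 126 ± 1.93 CPM in control. Btg2, which stands in this list too, also rose, and Gadd45b fell with -1.25.

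The expression patterns most like those of the most changed members were looked for among 8640 tested genes that averaged 10 CPM or more, leaving out predicted genes, clones and pseudogenes. For Ccnd1 these were Hmgb2, Macf1 and Gpnmb, with Pearson's r of log2 CPM of 0.9998, 0.9997 and 0.9997 over the 6 libraries. For Ccne2 they included Atp5j and Ubap1, with r of 0.9996 and 0.9991. With 3 libraries in each of 2 groups, r reflects mostly the step between groups, and the genes share their libraries, so these are descriptions. The sizes of change differed, from a log2 fold change of -2.42 for Ccnd1 to -1.43 for Hmgb2, and from 1.50 for Ccne2 to 0.43 for Atp5j.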

How the data were processed

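Gene-level RNA-seq data of 6 samples, 3 NETs-treated and 3 control, were grouped by their labelled treatment. Libraries were strand-specific, as the labels' protocols state. HISAT2, DESeq2, mm10 and rn6 stand in the submitters' processing notes, with neither version nor role. The counting program and the annotation were not given in the sources read. The authors deposited 1 table with raw read counts per gene, normalised counts (a signal, the count divided by 1 size factor per sample), log2 fold changes and p-values. Of its 55401 identifiers 54349, all 10 members among them, matched GENCODE M21 (GRCm38) with their version, which gave lengths and positions.

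Deposited counts were tested with edgeR 4.0.16 in R 4.3.3 (TMM scaling, minimum count 10, minimum total 15, quasi-likelihood test, two-sided, no covariates), with p-values adjusted over all 15272 tested genes and called under 0.05. SEs come from the fitted value and F. CPM are TMM-scaled and ratios use a pseudocount of 0.5. The test was tried on simulated data in which only a small part of the genes changed. Here 52.7% of tested genes were called, a case which that trial does not cover. Libraries of a group differed by a chi-square per gene of 9.94 to 80.3, and each counted as 1 sample. These differences do not tell whether the samples were cultured separately.

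Members and lists were chosen with earlier results of these data known. Up to 4 called genes with the largest change per list, and up to 2 against its majority, were named. Further genes named (Rb1, Trp53, Mdm2, Cdkn2a, Rbx1, Foxo3, Foxo4 and overlapping genes) were chosen after their values were seen. A microglia marker with its list's sum, and 1 gene with a pattern like that of Ccne2, are not reported here. Alternatives were other scalings, DESeq2 1.42.0, limma-voom (3.58.1), filters, a replicate block, left-out samples and the authors' table, and, added after seeing the data, GC correction and merged exon lengths.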

Additional observations from a re-analysis of the deposited data

How the results depend on the processing

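The log2 fold changes of the 10 genes kept their direction under all 16 other settings, and 157 of 160 values kept their side of the threshold. The 3 exceptions are Cdk2: 0.21 with scaling by library size only (edgeR adjusted p = 0.0520), a setting that moved the median of all tested genes to -0.09, and 0.25 to 0.34 with single libraries left out, where the call was lost without control replicate 1 (0.26) or 3 (0.25). Members called higher were then 5, and otherwise 6, with 4 lower throughout. The difference in the log2 ratio of Cdkn1a to Cdkn1b, NETs-treated minus control, was -0.01. This difference ran from -0.11 to 0.13 with single libraries left out and was positive without NETs-treated replicate 3 (0.13) or control replicate 1 (0.09). With correction for GC content, 5 genes in place of 3 fell in the turnover list and 2 in place of 4 among the transcription factors; the cause was not tested. With the CPM filter, the Wald test of DESeq2 or the replicate block, 2 genes in the list of enzymes acting on CDKs rose in place of 1.

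The samples share replicate numbers, but same-numbered deviations correlated by 0.124, 0.027 and 0.067, so the numbers were not taken as pairs, although each sample correlated best with its own number. With the replicate block 3896 genes were higher and 4209 lower, against 3896 and 4155 without, and members called were again 6 and 4. Merged exon lengths gave differences in D-type cyclin share, NETs-treated minus control, of -37.4 percentage points for Ccnd1, 15.9 for Ccnd2 and 21.5 for Ccnd3. With 3 libraries a group, ratios could not pass a threshold of 0.05.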
